A study of Macaca mulatta and Mus musculus with 5 samples.

Results

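The 9 genes JCHAIN, MZB1, PRDM1, IRF4, XBP1, TNFRSF17, HERPUD1, DNAJB9 and SEL1L3, which take part in plasma cell identity and antibody secretion, were followed by name through single-cell RNA tables of rhesus macaque meninges and spleen. They are 9 of the 14949 genes in these tables, and all 9 were listed in every channel. The study sorted cells of female Chinese rhesus macaques aged 4 to 8 years, with no treatment named, and loaded 8000 cells into each of 4 10x 3'-end channels, 2 from meninges and 2 from spleen. The labels write the sort as CD45–CD11b–CD3–. Every channel held B cells as well as T/NK-type cells, and in meninges CD3E UMIs were present in 938 of 1573 and 968 of 1642 T/NK-type cells, so the sort is repeated here only as it is written. A UMI is a tag that marks 1 captured RNA molecule.

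Plasma cells are the end stage of the B lineage and make antibody in bulk. IRF4 and then PRDM1 (Blimp-1) switch a B cell to this state and PRDM1 represses the B-cell programme, while XBP1, made active through the endoplasmic reticulum stress sensor IRE1, enlarges the secretory apparatus. The joining chain JCHAIN links antibodies into polymers, MZB1 is a chaperone-like protein of the endoplasmic reticulum, and TNFRSF17 (BCMA) is a survival receptor for the cytokines APRIL and BAFF. HERPUD1 serves the degradation of misfolded proteins, DNAJB9 (ERdj4) is a co-chaperone that XBP1 induces, and SEL1L3 is a little-studied membrane protein. IRF4 also acts in pre-B cells, in activated B cells and in T cells, and PRDM1 in effector T and NK cells.

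The meninges channels kept 4029 and 4269 cells (median 4078 and 4024 UMIs) and the spleen channels 5839 and 6783 cells (2404 and 2668 UMIs). Any pair of channels shared 4 to 11 cell barcodes. The labels do not say whether channels hold different animals, so the p-values rest on channel-to-channel spread alone, and that spread can be purely technical. Each gene's UMIs were summed per cell class and channel and are given as CPM, the gene's UMIs scaled to a fixed total of that class's UMIs. Means carry the SD over 2 channels. Exact binomial and Poisson intervals cover counting error only.

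Cells were sorted into classes by raw UMIs. The plasma gate asked for at least 5 JCHAIN and at least 3 MZB1 UMIs and took 85 and 84 cells in meninges (2.11% and 1.97%) and 184 and 275 in spleen (3.15% and 4.05%). The meningeal share was 2.04% ± 0.100 and the splenic share 3.60% ± 0.639 (SD, n = 2 each), a difference of -1.56 percentage points with a two-sided exact permutation p of 0.33, the smallest that 2 against 2 channels can give. The other B cells numbered 1863, 1957, 4429 and 5004, and germinal centre B cells, named by genes such as RGS13 and S1PR2, numbered 57, 66, 543 and 682 (meninges channel 1, meninges channel 2, spleen channel 1 and spleen channel 2, the order used throughout). Non-B cells were mostly T/NK-type (1573, 1642, 453 and 577 cells), and myeloid-type cells numbered 280, 294, 17 and 25.

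For B-cell and germinal centre RNA the gate took a more mixed set of cells in spleen than in meninges. MS4A1, the B-cell surface protein CD20 that plasma cells lose, had UMIs in 32.9% and 21.4% of gated meningeal cells and in 65.8% and 63.3% of gated splenic cells. The count of germinal centre genes that defined germinal centre B cells was met by 12 of 85 and 4 of 84 gated cells in meninges and by 92 of 184 and 99 of 275 in spleen. The 8 B-cell panel genes, all of them with UMIs in each channel, summed to 1220 and 793 CPM in the meningeal gate and to 3120 and 3240 CPM in the splenic gate. Both splenic channels therefore stood above both meningeal channels in B-cell and germinal centre RNA. T/NK and myeloid RNA went the other way. At least 2 UMIs of these 2 panels together were present in 47.1% and 45.2% of gated meningeal cells. In the splenic gate the shares were 40.2% and 39.6%.

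PRDM1 had UMIs in 42.4% and 58.3% of gated meningeal cells and in 25.5% and 23.3% of gated splenic cells. SDC1 (CD138), a surface marker of plasma cells, was seen in only 2.55 to 5.95% of gated cells in any channel, and at 0 in germinal centre B cells. The 0 of 57 and 0 of 66 meningeal germinal centre B cells allow shares of up to 5.26% and 4.55%, which reach into the gated range. In spleen 0 of 543 and 0 of 682 allow up to 0.552% and 0.44%. The values that placed cells in the gate were lower in spleen: the median gated cell held 111 and 270.5 JCHAIN UMIs in meninges against 26.5 and 30 in spleen, and 21 and 22 MZB1 UMIs against 6.5 and 13. At the edge of the gate, cells with 5 or more JCHAIN and exactly 3 MZB1 UMIs numbered 12, 4, 46 and 55, and MS4A1 UMIs were present in all of them. Just outside it, cells with 5 or more JCHAIN and exactly 2 MZB1 UMIs numbered 5, 11, 82 and 111, and 80.0%, 54.5%, 89.0% and 82.9% of these met the germinal centre count.

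Because of this mixture, results for the gate are also given for the 57, 66, 63 and 101 gated cells with 0 MS4A1 UMIs, a subset planned as an alternative for the share and the comparison between tissues. These made up 1.41%, 1.55%, 1.08% and 1.49% of cells. The difference in share turned to 0.196 percentage points (exact permutation p = 0.667), so the direction of the difference in share turned without the MS4A1-bearing cells.

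**Figure D1:**
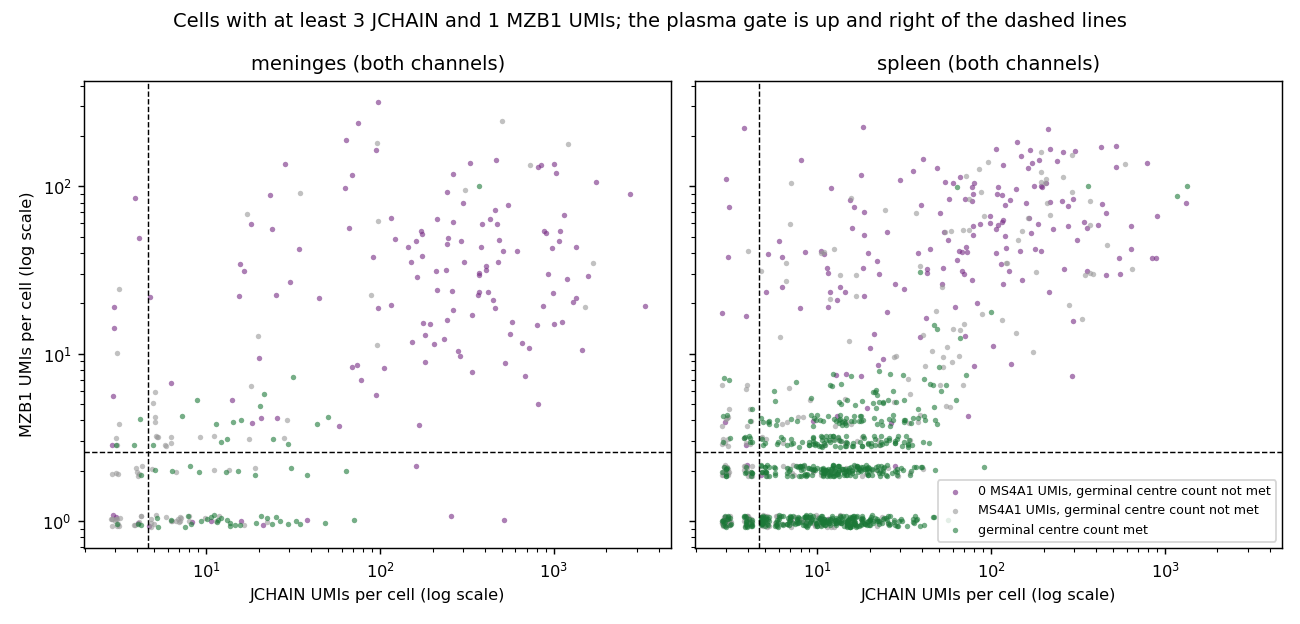
Each point is 1 cell with at least 3 JCHAIN and 1 MZB1 UMIs, placed by its JCHAIN (x) and MZB1 (y) UMIs on log scales with a small random shift so that points do not cover each other. Dashed lines mark the plasma gate. Cells that met the germinal centre count crowd the lower left of the spleen gate (92 of 184 and 99 of 275 gated splenic cells, 12 of 85 and 4 of 84 gated meningeal cells).

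JCHAIN, the joining chain, was used by the gate, so its levels there are a description without a test. In gated cells it stood at 21000 and 39200 CPM in meninges and at 10700 and 10900 CPM in spleen. The meningeal channels were both higher and lay far apart from each other, while the splenic channels were close. The gated cells, 2.11% and 1.97% of meningeal cells, held 92.8% and 94.5% of all JCHAIN UMIs there, against 73.4% and 75.3% in spleen, where germinal centre B cells held another 20.3% and 16.8%.

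Germinal centre B cells carried JCHAIN in both tissues, at 1070 and 1120 CPM in meninges and 1280 and 1300 CPM in spleen. JCHAIN UMIs were found in 71.9%, 80.3%, 82.0% and 84.8% of these cells, against 3.81 to 7.51% of T/NK-type cells, which do not make it and had lower median UMI counts (1841 to 3729 against 5365.5 to 7800.5). When every cell was thinned to 1000 UMIs, 43.6%, 48.4%, 57.9% and 62.2% of germinal centre B cells still showed JCHAIN, and 6.40 to 9.22% of other B cells did. Of all cells with 5 or more JCHAIN UMIs, 56.7% and 53.8% fell in the plasma gate in meninges but 33.2% and 35.0% in spleen, where 57.6% and 47.6% were germinal centre B cells.

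MZB1, the chaperone-like protein, stood at 3320 and 3450 CPM in the meningeal gate and 3540 and 4240 CPM in the splenic gate, again a description. Among gated cells with 0 MS4A1 UMIs it was lower in meninges (3970 and 3510 CPM) than in spleen (7670 and 8630 CPM), with no overlap between tissues. Other B cells held 142 and 153 CPM in meninges and 248 and 237 CPM in spleen, and these cells made up 23.6 to 30.3% of all MZB1 UMIs in a channel. MZB1 in germinal centre B cells stood at 78.6 to 124 CPM, a level set in part by the gate, which had already taken 12, 4, 92 and 99 cells that met the germinal centre count and held 930, 354, 778 and 551 CPM.

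High MZB1 also occurred without JCHAIN. Of the 59, 67, 90 and 136 cells with 20 or more MZB1 UMIs, 16, 16, 17 and 16 had fewer than 5 JCHAIN UMIs and thus lay outside the gate, and 12, 12, 6 and 12 had none. XBP1 UMIs were present in 81.2 to 100% of these cells and PRDM1 in 47.1 to 81.2%, at 361 ± 1.92 CPM XBP1 in meninges and 460 ± 43.1 CPM in spleen. They fell among unassigned, other B and T/NK-type cells, so a gate on JCHAIN left out a set of cells with high MZB1 and XBP1. Summed MZB1 in splenic T/NK-type cells (184 and 76.9 CPM) came mostly from cells without GZMB UMIs (173 of 193 and 72 of 93 UMIs).

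**Figure D2:**
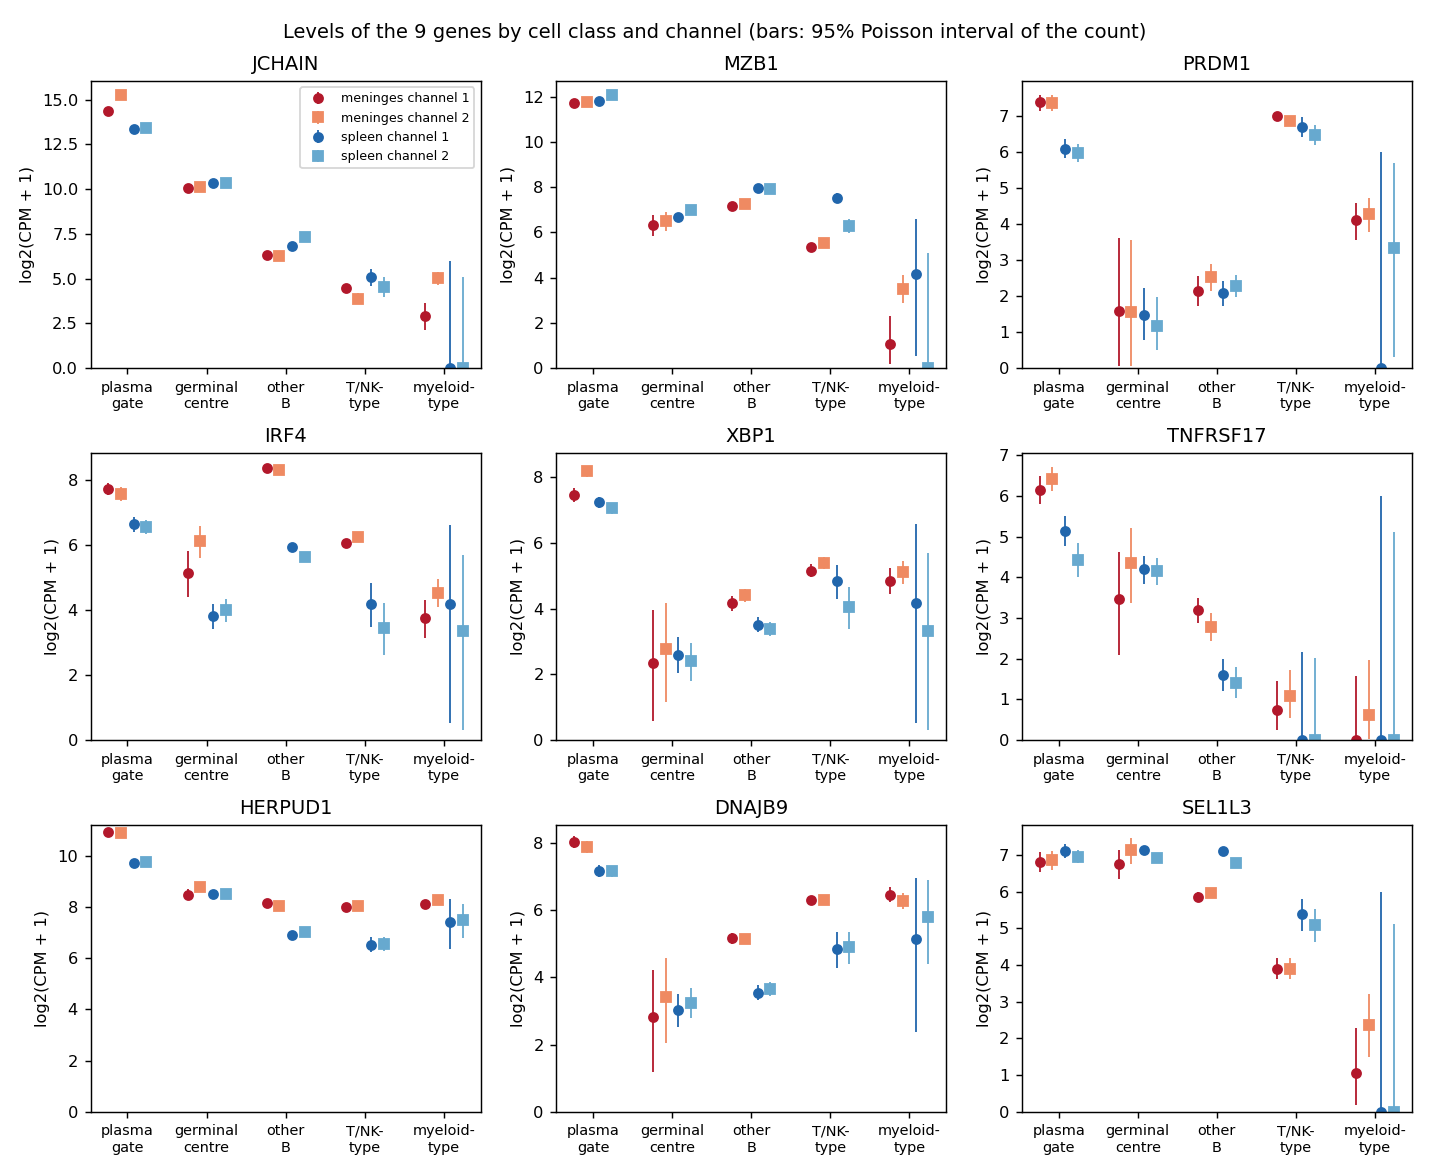
Level of each gene as log2(CPM + 1) in 5 cell classes, 1 point per channel (red and orange for meninges, dark and light blue for spleen), with the 95% Poisson interval of the count as bars. The vertical scale differs between genes and the splenic myeloid-type sums rest on 17 and 25 cells. PRDM1 is high in the plasma gate and in T/NK-type cells, and IRF4 in meninges is highest in other B cells.

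PRDM1, the repressor that ends the B-cell programme, stood at 166 and 165 CPM in the meningeal gate and 67.6 and 62.3 CPM in the splenic gate. T/NK-type cells held 128 and 117 CPM in meninges and 104 and 88.5 CPM in spleen. Other B cells (3.25 to 4.77 CPM) and germinal centre B cells (1.25 to 2.02 CPM, from 1 to 7 UMIs a channel) were at the bottom. Across the 4 channels the gate exceeded other B cells by 5.09 ± 0.32 log2 units (SE; edgeR quasi-likelihood test with Benjamini-Hochberg adjustment, adjusted p = 2.6e-05). T/NK-type cells exceeded other B cells by 4.73 ± 0.16 (adjusted p = 4.4e-07).

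In meninges T/NK-type cells held 72.9% and 71.5% of PRDM1 UMIs and the plasma gate 16.1% and 16.7%. In spleen T/NK-type cells held 36.7% and 32.1% and the gate 39.1% and 39.9%. Within T/NK-type cells, those with GZMB UMIs (granzyme B, a cytotoxic protease) had 133, 128, 127 and 110 CPM, and those without had 101, 66.1, 31.6 and 14.6 CPM.

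Between tissues, PRDM1 was higher in the meningeal gate by 1.72 ± 0.15 log2 units (adjusted p = 0.000141) and stayed higher among gated cells with 0 MS4A1 UMIs, where it stood at 221, 196, 146 and 131 CPM (0.82 ± 0.17, adjusted p = 0.0198). In T/NK-type cells it was higher by 0.61 ± 0.10 (adjusted p = 0.000964). In other B cells the difference of 0.21 ± 0.27 did not pass (adjusted p = 0.539). In germinal centre B cells too few UMIs were present for a test.

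IRF4, which drives both pre-B and plasma cell stages, followed another order in meninges. Its level in meninges was highest in other B cells at 328 and 311 CPM, above the plasma gate at 209 and 188 CPM, T/NK-type cells at 64.9 and 73.9 CPM and germinal centre B cells at 34.3 and 68.3 CPM. In spleen the gate was highest of these classes at 97.9 and 91.8 CPM, followed by other B cells at 60.4 and 48.4 CPM. Germinal centre (12.9 and 14.8 CPM) and T/NK-type cells (17.1 and 9.92 CPM) overlapped at the bottom. Over both tissues the difference between the gate and other B cells did not pass (0.40 ± 0.24, adjusted p = 0.219), while it passed for gated cells with 20 or more MZB1 UMIs (1.14, adjusted p = 0.00611).

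IRF4 was higher in meninges within other B cells, T/NK-type cells and the plasma gate. The difference was 2.57 ± 0.09 log2 units in other B cells (adjusted p = 1.31e-10), 2.63 ± 0.22 in T/NK-type cells (adjusted p = 4.08e-06) and 1.43 ± 0.15 in the plasma gate (adjusted p = 0.000352). Among gated cells with 0 MS4A1 UMIs the levels of 187, 186, 140 and 161 CPM still did not overlap, but the difference fell short of the threshold (0.53 ± 0.18, adjusted p = 0.11). The difference between tissues was smaller in the gate than in other B cells by 1.18 ± 0.17 (interaction term -1.18, adjusted p = 0.000445).

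Meningeal other B cells include cells with UMIs of the early B-lineage genes RAG1, RAG2, DNTT or VPREB1 (391 and 348 cells, against 19 and 27 in spleen). IRF4 stood at 520 and 470 CPM in these meningeal cells and at 276 and 276 CPM in the rest. Without them the difference between tissues was 2.44 ± 0.09 (adjusted p = 3.49e-21), so it was nearly as large. In germinal centre B cells, by contrast, the IRF4 difference of 1.85 ± 0.32 (adjusted p = 0.0174) shrank to 0.30 ± 0.40 (adjusted p = 0.855) without cells carrying early B-lineage UMIs. That call was also lost without either meningeal channel (2.26 and 1.24 log2 units, adjusted p = 0.622 and 0.538) and with no filter on low counts (1.79, adjusted p = 0.54).

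Immediate early genes, which respond within minutes to stimulation and to tissue handling, were higher in both meningeal channels than in both splenic ones in every class. Their 21 measured genes summed to 7440 and 7610 CPM in meningeal and 1560 and 1500 CPM in splenic other B cells. Among other B cells thinned to 1000 UMIs that held 0 to 9 of these UMIs, IRF4 was seen in 26.9% and 24.0% in meninges and in 5.58% and 4.23% in spleen. This range does not match the tissues, since the median other B cell held 5 immediate early UMIs in either meningeal channel and 1 in either splenic channel after thinning. The part of these genes in the differences between tissues, that of IRF4 included, was not tested.

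XBP1, the factor that expands the secretory apparatus, stood at 176, 290, 151 and 133 CPM in the gate and was raised there over other B cells (4.07 ± 0.15 log2 units, adjusted p = 5.23e-06). Among T/NK-type, other B and germinal centre B cells, T/NK-type cells came next with 34.7 and 41.0 CPM in meninges and 27.6 and 15.7 CPM in spleen. They stood above other B cells (16.9, 20.3, 10.4 and 9.47 CPM) by 1.01 ± 0.14 (adjusted p = 0.00066). Unassigned cells held 65.5 to 127 CPM. Germinal centre B cells were lowest at 4.03 to 5.86 CPM, below other B cells by 1.27 on the log2 scale (-1.27 ± 0.24, adjusted p = 0.00228). Cells that met the germinal centre count but fell in the gate had a splenic mean of 14.7 CPM.

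In the gate XBP1 was higher in meninges (1.10 ± 0.23, adjusted p = 0.0136), with meninges channel 2 well above the 3 other channels. Without that channel the difference was 0.64 ± 0.18 (adjusted p = 0.0333). Among gated cells with 0 MS4A1 UMIs the 4 levels were 223, 335, 356 and 289 CPM, the tissues overlapped and the difference was 0.02 ± 0.19 (adjusted p = 0.971). In other B cells (0.92 ± 0.14, adjusted p = 0.000162) and in T/NK-type cells (1.08 ± 0.23, adjusted p = 0.00442) XBP1 was higher in meninges.

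TNFRSF17, the APRIL and BAFF receptor BCMA, stood at 70.6 and 85.2 CPM in the meningeal gate and at 34.4 and 20.6 CPM in the splenic gate. TNFRSF17 in germinal centre B cells stood at 10.1, 19.5, 17.3 and 16.8 CPM and in other B cells at 8.14, 5.88, 2.01 and 1.63 CPM. In T/NK-type cells 4 and 7 UMIs were found in meninges and 0 in spleen, where 0 of 453 and 0 of 577 cells allow shares of cells with a UMI of up to 0.662% and 0.52%. This limits cells with a UMI and not cells that express the gene, since TNFRSF17 UMIs were seen in only 22.3% and 14.5% of gated splenic cells, which are deeper. The gate exceeded other B cells by 4.02 ± 0.20 log2 units (adjusted p = 1.06e-05) and germinal centre B cells exceeded them by 2.40 ± 0.42 (adjusted p = 0.00148).

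The difference between tissues in the gate was 1.89 ± 0.26 (adjusted p = 0.00178). Among gated cells with 0 MS4A1 UMIs, with 94.7, 76.9, 44.3 and 31.1 CPM, both meningeal channels stayed above both splenic ones (1.43 ± 0.26, adjusted p = 0.01). In other B cells TNFRSF17 was also higher in meninges (1.96 ± 0.26, adjusted p = 5.6e-05). There it lay mainly in cells with early B-lineage UMIs, at 24.8 and 22.7 CPM against 3.64 and 2.17 CPM in the other meningeal cells, and without those cells the difference was 0.81 ± 0.35 (adjusted p = 0.0629). In germinal centre B cells the difference of -0.24 ± 0.38 did not pass (adjusted p = 0.871), and these cells held 42.5% and 49.6% of all splenic TNFRSF17 UMIs.

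HERPUD1, of the degradation pathway for misfolded proteins, stood at 1940 and 1910 CPM in the meningeal gate and 840 and 868 CPM in the splenic gate. Among germinal centre B, other B and T/NK-type cells, HERPUD1 was highest in germinal centre B cells with 357, 443, 360 and 367 CPM. Other B cells held 283, 260, 119 and 128 CPM and T/NK-type cells 258, 261, 91.3 and 93.4 CPM. Unassigned cells stood above these at 525 to 741 CPM. The gate exceeded other B cells by 3.15 ± 0.14 log2 units (adjusted p = 8.2e-06) and germinal centre B cells exceeded them by 1.05 ± 0.21 (adjusted p = 0.0033). The difference between T/NK-type and other B cells did not pass (-0.30 ± 0.14, adjusted p = 0.12).

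HERPUD1 was higher in meninges in the gate (1.54 ± 0.14, adjusted p = 0.000128), also with 0 MS4A1 UMIs (2500, 2050, 1620 and 1600 CPM, 0.73 ± 0.13, adjusted p = 0.0106). It was higher in meninges in other B cells (1.15 ± 0.08, adjusted p = 1.62e-07) and in T/NK-type cells (1.74 ± 0.09, adjusted p = 4.53e-08), and the T/NK-type difference exceeded that in other B cells by 0.63 ± 0.11 (interaction, adjusted p = 0.000398). Germinal centre B cells showed 0.10 ± 0.10 (adjusted p = 0.772).

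DNAJB9, the co-chaperone, stood at 260, 235, 144 and 142 CPM in the gate, 78.4, 78.4, 27.6 and 28.9 CPM in T/NK-type cells, 34.9, 34.4, 10.7 and 11.7 CPM in other B cells and 6.05, 9.76, 7.10 and 8.53 CPM in germinal centre B cells. It was raised in the gate over other B cells (3.59 ± 0.16, adjusted p = 8.2e-06), raised in T/NK-type cells (1.19 ± 0.10, adjusted p = 4.44e-05) and lower in germinal centre B cells (-0.96 ± 0.29, adjusted p = 0.0221). Cells with the germinal centre count that fell in the gate had a splenic mean of 25.7 CPM. The tissues were fully apart in the gate, in T/NK-type cells and in other B cells, and overlapped in germinal centre B cells.

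The tissue difference of DNAJB9 was 1.16 ± 0.14 in the gate (adjusted p = 0.00106), 1.64 ± 0.12 in other B cells (adjusted p = 1.47e-07) and 1.72 ± 0.14 in T/NK-type cells (adjusted p = 3.78e-06). Among gated cells with 0 MS4A1 UMIs it was 0.18 ± 0.17 (adjusted p = 0.61), with 339, 260, 308 and 312 CPM. Against other B cells this made the tissue difference of the 0-MS4A1 gate smaller by 1.44 log2 units (interaction -1.44 ± 0.22, adjusted p = 0.000325), whereas for the whole gate the interaction of -0.51 ± 0.18 did not pass (adjusted p = 0.0828).

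Among the 7 genes outside the gate's definition, SEL1L3 behaved unlike the others in its tissue difference. JCHAIN and MZB1, which the gate used, also had lower CPM in meninges than in spleen in other B and T/NK-type cells. Its levels in the gate were 112, 115, 137 and 123 CPM, in germinal centre B cells 107, 139, 140 and 120 CPM, in other B cells 57.4, 61.6, 138 and 110 CPM, and in T/NK-type cells 14.0, 14.0, 40.9 and 33.1 CPM. In spleen the channels of the gate, germinal centre and other B cells overlapped, and in meninges other B cells were lower than both. SEL1L3 fell in meninges in other B cells (-1.04 ± 0.10, adjusted p = 1.77e-06) and in T/NK-type cells (-1.14 ± 0.19, adjusted p = 0.000891).

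In the gate the SEL1L3 difference was 0.17 ± 0.15 (adjusted p = 0.502) after normalization by the trimmed mean, although its CPM were lower in meninges. With 0 MS4A1 UMIs it was -0.43 ± 0.18 (adjusted p = 0.2). The gate exceeded other B cells by 0.83 ± 0.24 (adjusted p = 0.0264), a call lost without either meningeal channel (0.63 in both fits). The fall of SEL1L3 in meningeal other B cells (-1.04) was not seen in the gate (0.17), which gave an interaction of 1.18 ± 0.17 (adjusted p = 0.000562). Without the gated cells that carried MS4A1 UMIs that interaction was 0.63 ± 0.23 (adjusted p = 0.141).

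**Figure D3:**
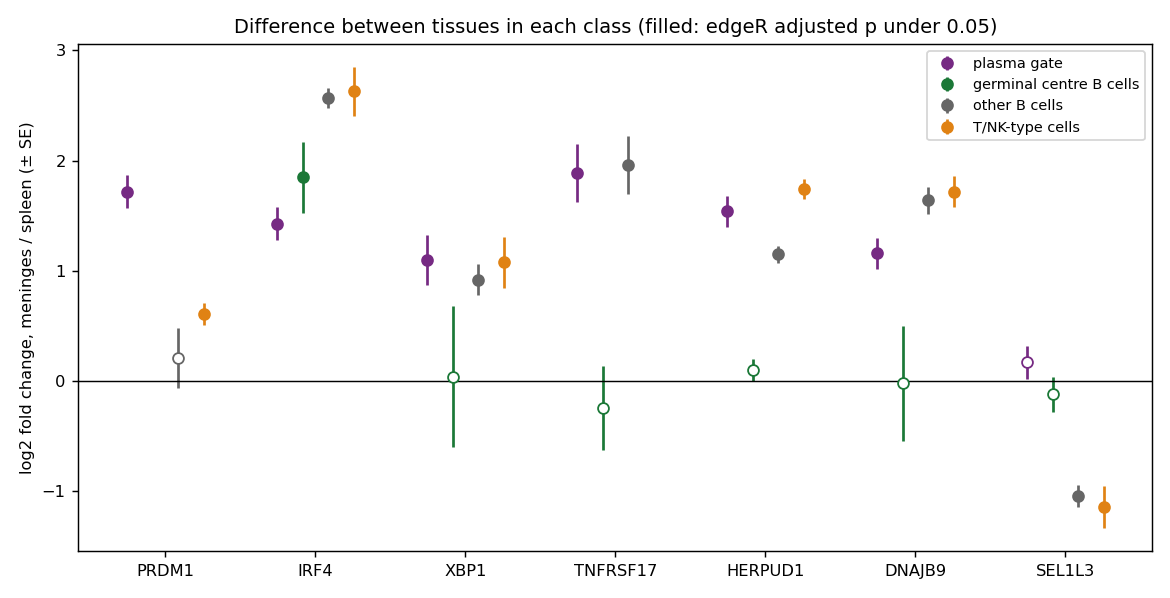
Log2 fold change of meninges over spleen with its SE (bars) for the 7 genes outside the gate's definition, by cell class; filled points passed an adjusted p of 0.05. PRDM1 was not tested in germinal centre B cells and TNFRSF17 not in T/NK-type cells for want of UMIs. IRF4 lies above 0 in all 4 classes, and SEL1L3 below 0 in other B and T/NK-type cells.

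Counted together, 6 of the 7 genes outside the gate's definition were higher in the meningeal gate and none lower, where 13.9% of all 7425 genes tested passed in either direction (8.74% higher and 5.14% lower). Of these 6, PRDM1, TNFRSF17 and HERPUD1 also passed among gated cells with 0 MS4A1 UMIs (3 of 7, background 7.71%), among gated cells that did not meet the germinal centre count (background 5.95%) and among those with 20 or more MZB1 UMIs (background 3.37%). IRF4, XBP1 and DNAJB9 passed in none of these 3 subsets. The splenic gate held more cells with MS4A1 UMIs or the germinal centre count than the meningeal gate, and these 3 subsets give the values without them or with fewer of them.

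**Figure D4:**
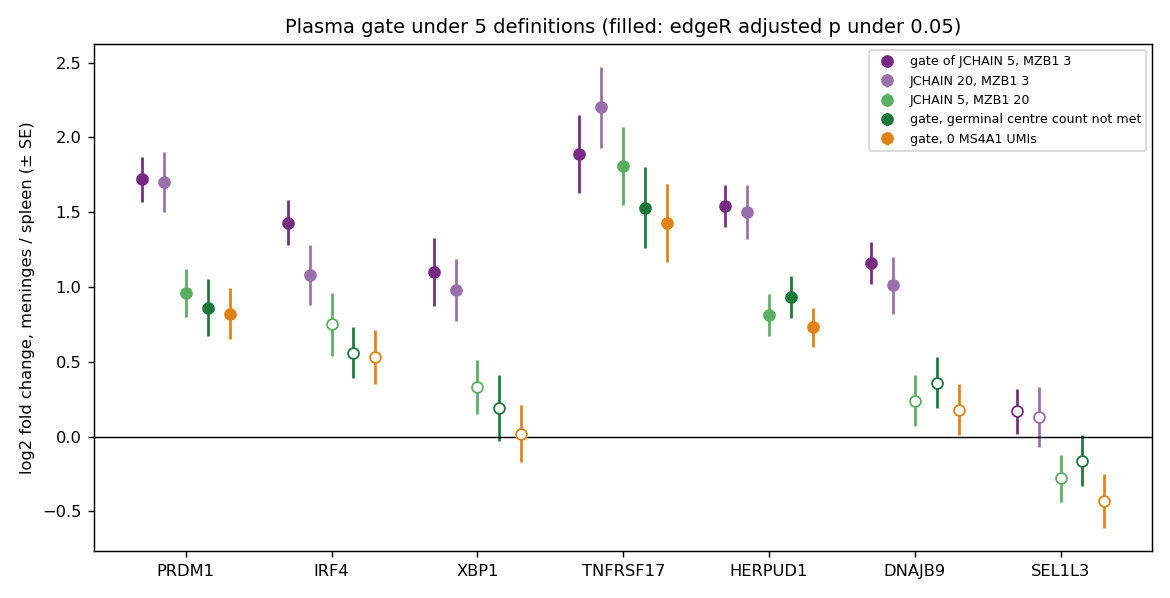
Log2 fold change of meninges over spleen with its SE for the 7 genes under 5 definitions of the plasma gate (numbers in the legend are the least UMIs of JCHAIN and MZB1); filled points passed an adjusted p of 0.05. The XBP1 value falls from 1.10 to 0.02 and the DNAJB9 value from 1.16 to 0.18 when cells with MS4A1 UMIs are left out, while TNFRSF17 stays at 1.43 or more.

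In other B cells 5 of the 7 genes were higher in meninges and 1 lower (background 47.5% of 11161 genes, 25.2% higher and 22.3% lower). In T/NK-type cells 5 of 6 tested were higher and 1 lower (background 31.2%, 18.0% higher and 13.1% lower), and the same counts held for all non-B cells (background 35.4%, 20.7% higher and 14.7% lower). In germinal centre B cells 1 of 6 passed, with IRF4 higher (background 0.734%, 0.663% higher and 0.071% lower). The median change of the members tested was 1.15 log2 units in other B cells, 1.40 in T/NK-type cells and 0.01 in germinal centre B cells, beside -0.01, -0.01 and 0.01 over all genes.

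Between classes, 6 of 7 genes were higher in the plasma gate than in other B cells (background 37.6%, 18.9% higher and 18.7% lower), with IRF4 the exception. The background was 40.2% for gated cells with 0 MS4A1 UMIs, 40.9% without the germinal centre count and 43.5% with 20 or more MZB1 UMIs. In germinal centre B cells TNFRSF17 and HERPUD1 were higher and PRDM1 (-1.19 ± 0.38, adjusted p = 0.03), IRF4 (-2.29 ± 0.21, adjusted p = 2.77e-05), XBP1 and DNAJB9 lower than in other B cells (6 of 7, background 44.9%, 22.1% higher and 22.9% lower). This class lacks the cells with the germinal centre count that the gate took first. In spleen those held 25.7 ± 9.71 CPM DNAJB9, 14.7 ± 7.46 XBP1, 16.3 ± 9.69 IRF4 and 4.73 ± 6.69 PRDM1 (SD). The splenic means of the class itself were 7.82, 4.67, 13.9 and 1.52 CPM. A fit with those cells put back was not run. The PRDM1 call was lost without either splenic channel (-1.45 and -0.93), and the DNAJB9 call held in 3 of 4 fits that left out a channel. In T/NK-type cells PRDM1, XBP1 and DNAJB9 were higher and IRF4 (-2.18 ± 0.11), TNFRSF17 (-2.99 ± 0.44) and SEL1L3 (-2.0 ± 0.09) lower (6 of 7, background 46.3%, 22.4% higher and 23.9% lower).

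The tissue difference itself differed between the gate and other B cells for 3 of the 7 genes, PRDM1 and SEL1L3 upward and IRF4 downward (background 11.2%, 4.48% higher and 6.76% lower). Between T/NK-type and other B cells it differed for HERPUD1 (1 of 7, background 16.4%, 9.96% higher and 6.39% lower).

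Summed over all cells of a channel, 5 of the 9 genes were higher in meninges and 2 lower (background 58.2% of 12441 genes, 31.1% higher and 27.1% lower). A sum over all cells cannot tell fewer cells of a type from less RNA per cell. IRF4 (2.03 ± 0.07), PRDM1 (1.90 ± 0.09), DNAJB9 (1.47 ± 0.09), XBP1 (0.79 ± 0.11) and HERPUD1 (0.68 ± 0.07) were higher, with adjusted p from 1.15e-07 to 0.000467. MZB1 (-0.95 ± 0.11, adjusted p = 0.000119) and SEL1L3 (-1.42 ± 0.08, adjusted p = 2.48e-06) were lower. JCHAIN stood at 1230, 2210, 1240 and 1400 CPM and did not pass (0.42 ± 0.24, adjusted p = 0.158), and its value was -0.07 without meninges channel 2 (adjusted p = 0.753) and 0.79 without meninges channel 1 (adjusted p = 2.55e-05). TNFRSF17 gave 0.35 ± 0.14 (adjusted p = 0.0555).

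**Figure D5:**
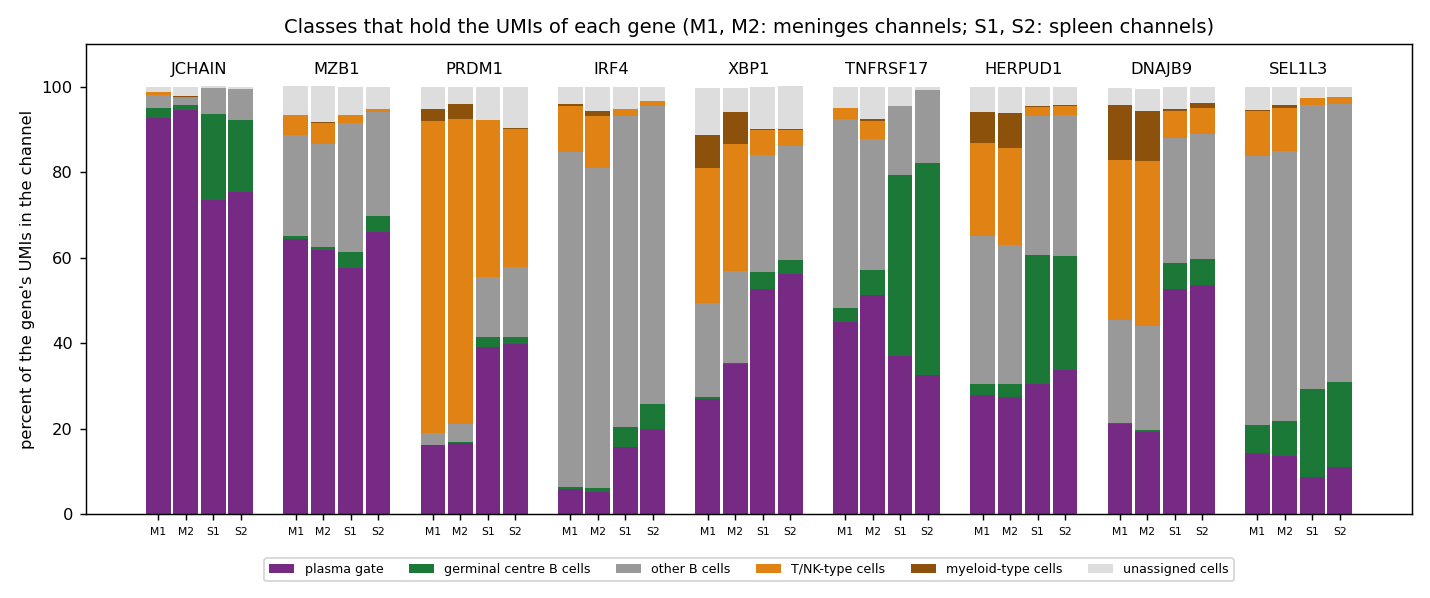
Share of each gene's UMIs (y, percent) that lay in each cell class, 1 bar per channel. In meninges 72.9% and 71.5% of PRDM1 UMIs lie in T/NK-type cells, and in spleen 42.5% and 49.6% of TNFRSF17 UMIs lie in germinal centre B cells.

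The wider pathway lists are given by counts, and in the gate against other B cells 18.9% of all genes were higher and 18.7% lower. Of 27 tested genes of the unfolded protein response and of degradation from the endoplasmic reticulum, a list that includes HERPUD1 and DNAJB9, 25 were higher and 1 lower in the gate than in other B cells, with a median of 2.50 log2 units (all genes -0.1). Examples are CRELD2 (5.17, adjusted p = 5.23e-06) and PDIA4 (3.67, adjusted p = 4.44e-05), folding factors of the endoplasmic reticulum, and the sensor ATF6 was the 1 lower (-0.58, adjusted p = 0.0321). Of 28 translocation and secretion genes 26 were higher and none lower, with a median of 2.05, among them SSR3 of the translocon-associated complex (3.54) and the cargo receptor LMAN1 (3.27).

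Between tissues the counts of the same lists differed between the whole gate, where 8.74% of all genes were higher and 5.14% lower, and the 0-MS4A1 gate, where 320 of 5279 genes were higher and 87 lower. In the whole gate 15 of 27 unfolded protein response genes were higher in meninges and none lower (median 0.70, and 0 over all genes), including ERN1, which encodes IRE1 (1.89, adjusted p = 0.00366), and DDIT3 (1.70, adjusted p = 0.006). In the 0-MS4A1 gate 4 were higher and 3 lower (median -0.14). For translocation and secretion 12 were higher and 1 lower of 28 in the whole gate, among them SSR3 (0.85) and SSR4 (0.75), and 0 higher and 3 lower with 0 MS4A1 UMIs (median -0.32).

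Against the same backgrounds (8.74% higher and 5.14% lower in the whole gate, 320 higher and 87 lower of 5279 genes in the 0-MS4A1 gate), the remaining lists gave these counts. Of the 11 tested plasma regulators and surface genes, a list that shares 5 members with the 7 genes, 8 were higher in the meningeal gate and none lower, including SLAMF7 (1.42, adjusted p = 0.000698) and the elongation factor ELL2 (1.05, adjusted p = 0.00655). With 0 MS4A1 UMIs 3 were higher. B-cell identity genes went the other way: 8 of 12 were lower in the meningeal gate, including the class II activator CIITA (-2.01) and the B-lineage factor PAX5 (-1.91), and with 0 MS4A1 UMIs 1 of 5 was. Homing and survival genes were higher for 8 of 12 in the whole gate, led by BCL2 (3.75, adjusted p = 7.9e-06) and KLF2 (3.42, adjusted p = 0.00463), and for 5 of 10 with 0 MS4A1 UMIs.

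Other gene groups moved with tissue in the gate. The immediate early genes summed to 8610 and 11300 CPM in meninges and 1770 and 1760 CPM in spleen, with 17 of 18 higher, and heat shock genes to 4740 and 3760 against 3010 and 2580 CPM, with 7 of 9 higher. With 0 MS4A1 UMIs 11 of 14 and 6 of 9 were higher. The T/NK panel stood at 381, 375, 221 and 270 CPM in the gate (10 to 13 of its 13 measured genes had UMIs), the myeloid panel at 36.1 to 83.2 CPM, and 6 stromal markers at 8.83, 83.2, 6.99 and 1.41 CPM. The part of these groups in the differences of the 7 genes was not tested. With the 0-MS4A1 gate the B-cell panel was 224 and 192 CPM in meninges and 428 and 337 CPM in spleen.

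In other B cells, where 25.2% of all genes were higher in meninges and 22.3% lower, 13 unfolded protein response genes were higher and 5 lower of 27 (median 0.25), with DDIT3 (1.97) and DERL3 (1.06) up and PDIA6 (-0.69) and EDEM2 (-0.59) down. In T/NK-type cells, where 18.0% of all genes were higher and 13.1% lower, 13 of 27 were higher and 1 lower (median 0.37), with DDIT3 (2.12) and the chaperone HSPA5 (1.41) up. Secretion genes in other B cells, 5 higher and 6 lower of 28 (median -0.02), did not stand out from that background. Cycling genes rose in meningeal other B cells (9 of 10, median 2.19). This class includes cells with early B-lineage UMIs, whose part in the rise was not tested. It leaves out germinal centre B cells, where the cycling gene MKI67 had a mean of 702 CPM in meninges and 534 CPM in spleen.

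After thinning to 1000 UMIs the 7 genes were seldom seen together in single cells. Thinning lowers such shares, since the median gated cell held 7137 to 11536 UMIs. Without thinning, HERPUD1 alone was seen in 90.5 to 96.4% of gated cells and DNAJB9 in 39.1 to 75.0%. At the thinned depth 3 or more of the 7 were present in 15.5% and 20.2% of gated cells in meninges and in 9.84% and 9.82% in spleen. With 0 MS4A1 UMIs in the gate the shares were 22.8%, 25.8%, 22.6% and 25.7%, and the tissues overlapped. In other B, germinal centre and T/NK-type cells the share was at most 1.09% in any channel.

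Likeness of pattern was read over 18 class sums with at least 50 cells, as the Pearson correlation of log2(CPM + 1), a description over sums that share libraries. Among 7371 genes the closest to XBP1 were RPN1 (0.981), CREB3L2 (0.973) and HSP90B1 (0.970), to DNAJB9 SLC16A6 (0.978), HSPA5 (0.971) and SURF4 (0.966), and to HERPUD1 SEC61G (0.951), LRRC59 (0.942) and CNN3 (0.940). JCHAIN was closest to SEC11C (0.974), TMEM70 (0.972) and EEF1E1 (0.966), and MZB1 to CNP (0.962), DAD1 (0.927) and PIM2 (0.922). PRDM1 was closest to ERN1 (0.956), PDIA3 (0.950) and TPST2 (0.933), and TNFRSF17 to JCHAIN (0.945), SEPTIN10 (0.941) and EIF2AK3 (0.937).

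IRF4 had no close partner: its nearest genes were CMTM7 (0.838), PITPNB (0.782) and DUSP2 (0.775). SEL1L3 was closest to ST6GAL1 (0.966), CENPM (0.947) and BLK (0.946). Among the 9 genes themselves XBP1 and DNAJB9 were the most alike (0.960), and PRDM1 ran with XBP1 (0.828) and DNAJB9 (0.824). The lowest correlations, both weak, were those of SEL1L3 with DNAJB9 (-0.307) and PRDM1 (-0.265).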

How the data were processed

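The deposited values are unnormalized UMI counts, genes by cells. Per the submitters' processing notes the authors used Cell Ranger and mm10, while for macaque the reference was not given in the sources used here. No listed gene had UMIs in fewer than 3 cells of its table, and 2521 genes carry no symbol. The mouse library of the series was not used.

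Cells under 300 genes or over 10% mitochondrial UMIs were dropped (scanpy 1.11.5, Python 3.11.15). Scrublet removed 39 cells from each meninges channel and marked 0 in spleen, where it was taken not to have worked. Between 4073 and 6786 barcodes were listed per channel. After the plasma gate, B cells had at least 2 UMIs of an 8-gene B panel and at least 3 times those of the T/NK and myeloid panels together, and non-B cells the reverse. Germinal centre B cells were B cells with at least 3 UMIs over at least 2 of 8 germinal centre genes.

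Class sums per channel went into the quasi-likelihood test of edgeR 4.0.16 (R 4.3.3) after filterByExpr and trimmed-mean scaling, with p-values adjusted by Benjamini-Hochberg over every gene tested and 0.05 as threshold. Comparisons between classes carried the channel as a block, and interaction terms compared tissue differences between classes. The fits were checked on simulated data. All 9 genes were named in every comparison, and from each pathway list at most 2 genes that rose most and 2 that fell most past the threshold, with the 3 genes most alike. JCHAIN and MZB1, which define the gate, were tested only over all cells. Alternatives covered the count filter, DESeq2 1.42.0, other scalings, stricter cell filters, doublets, other gates and leaving out each channel. The 9 genes and the lists were chosen with earlier results of these data known, and the gates by 20 or more MZB1 UMIs or without cells that met the germinal centre count were added after seeing the data, as was the gate with 0 MS4A1 UMIs in comparisons between classes and interactions.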

Additional observations from a re-analysis of the deposited data

Results flagged for a closer look

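For 4 values the difference between tissues itself differed between cell classes by an interaction test (edgeR, adjusted p under 0.05). PRDM1 differed more between meninges and spleen in the plasma gate than in other B cells by 1.48 ± 0.29 log2 units (SE; adjusted p = 0.00384), and with 0 MS4A1 UMIs in the gate by 0.64 ± 0.32 (adjusted p = 0.33). IRF4 differed less in the gate than in other B cells (-1.18 ± 0.17, adjusted p = 0.000445), with values of -2.02 and -2.01 in the 0-MS4A1 gate and in the gate without germinal centre counts. SEL1L3 was lower in meningeal other B cells while its difference in the gate did not pass, an interaction of 1.18 ± 0.17 (adjusted p = 0.000562). Its mean CPM in the gate was 113 in meninges and 130 in spleen. With 0 MS4A1 UMIs in the gate the means were 108 and 170 CPM, and the interaction did not pass. HERPUD1 differed more between tissues in T/NK-type than in other B cells by 0.63 ± 0.11 (adjusted p = 0.000398).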

How the results depend on the processing

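Of 1092 values recomputed under an alternative, 1015 kept their direction and side of the threshold or stayed within 1.5 times, and the cause of the others was not tested. In the plasma gate the 1031 genes called between tissues (62.9% higher in meninges) became 550 with DESeq2, 601 with 20 or more JCHAIN UMIs, 407 with 0 MS4A1 UMIs (78.6% higher), 382 with at most 1 T/NK or myeloid panel UMI (77.7%), and, in gates chosen after seeing the data, 178 with 20 or more MZB1 UMIs (92.1%) and 368 without the germinal centre count (83.2%). Members called fell from 6 to 3 with 0 MS4A1 UMIs and in both added gates, where SEL1L3 turned to -0.43, -0.28 and -0.16. XBP1 also lost its call with at most 1 T/NK or myeloid panel UMI (1.03).

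In germinal centre B cells the 62 genes called (90.3% higher) became 41 with DESeq2 (48.8%), 400 with a 2-UMI gate (64.5%), 36 without cells with early B-lineage UMIs, and 0 with no count filter in edgeR, where 1006 genes had an unadjusted p under 0.05. Members called went from 1 to 0 with no filter, with DESeq2, which gave IRF4 no adjusted p, and without early B-lineage cells. DNAJB9 turned to 0.31 with the 2-UMI gate and 0.19 without early B-lineage cells, and XBP1 to -0.01 with no filter and -0.09 without early B-lineage cells. With DESeq2 the calls were 2101 in non-B cells (3642 with edgeR) and 1481 in T/NK-type cells (3001; 70.1% against 57.8% higher).

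For the interaction of plasma gate and other B cells 1205 genes (39.8% higher) became 541 with DESeq2, 720 with 20 or more JCHAIN UMIs (TNFRSF17 0.25), 537 with 0 MS4A1 UMIs (50.8% higher; HERPUD1 -0.41, XBP1 -0.88), 493 with 20 or more MZB1 UMIs (HERPUD1 -0.34, XBP1 -0.58) and 530 without the germinal centre count (HERPUD1 -0.22, XBP1 -0.72), the last 3 added after seeing the data. For T/NK-type cells 1860 became 822 with DESeq2, IRF4 was -0.02 with the stricter cell filter and SEL1L3 0.01 with no doublet removal. The difference in plasma share was -0.566 with 20 or more JCHAIN UMIs, 0.196 with 0 MS4A1 UMIs, -0.379 with 20 or more MZB1 UMIs and -0.242 without the germinal centre count.

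Leaving out 1 channel, with the lone channel taken to vary like the others, gave 6275 to 7064 genes over all cells (7 to 8 members), 618 to 1371 in the plasma gate (6 members; 618 without meninges channel 2), 0 to 71 in germinal centre B cells (0 to 1 members), 4123 to 5018 in other B cells, 2691 to 3279 in non-B cells (5 to 6 members) and 2313 to 2539 in T/NK-type cells. The 0 came without meninges channel 1 or 2, where edgeR gave 731 and 852 genes an unadjusted p under 0.05. Between classes it gave 2579 to 3447 for the plasma gate (2579 without spleen channel 2), 3189 to 4821 for germinal centre B cells (3189 and 3237 without spleen channel 1 and 2) and 3767 to 4909 for T/NK-type cells. The interactions gave 577 to 1392 (577 without spleen channel 1) and 1131 to 1607 (1131 without spleen channel 2), and the share -2.01 to -1.11.

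Over the 4 omissions JCHAIN in all cells ranged from -0.07 to 0.79 and PRDM1 in other B cells from -0.06 to 0.44. TNFRSF17 in germinal centre B cells ranged from -0.82 to 0.16 and XBP1 there from -0.27 to 0.29, the plasma interactions of TNFRSF17 from -0.46 to 0.30 and of XBP1 from -0.15 to 0.34, and the T/NK-type interactions of IRF4 from -0.12 to 0.38 and of XBP1 from -0.11 to 0.59. Without meninges channel 2 JCHAIN over all cells was -0.07, PRDM1 in other B cells -0.06, HERPUD1 and XBP1 in germinal centre B cells -0.09 and -0.27, the plasma interaction of XBP1 -0.15 and the T/NK-type interaction of IRF4 -0.03. Without meninges channel 1 DNAJB9, SEL1L3 and TNFRSF17 in germinal centre B cells were 0.28, 0.06 and 0.16 and the plasma interaction of TNFRSF17 was 0.30, which was 0.16 without spleen channel 1. Without spleen channel 2 the T/NK-type interactions of IRF4 and XBP1 were -0.12 and -0.11.

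Channels share only a number, with correlations of same-numbered deviations from -0.174 to 0.057. With that number as a replicate block 1615 genes were called in the plasma gate and 132 in germinal centre B cells (67.4% higher), and members called over all cells went from 7 to 8. A crossed replicate block, added after seeing the data, gave 1212 and 37 genes, with 0 members in germinal centre B cells. Without the library block members called went from 6 to 5 for the plasma gate against other B cells. For T/NK-type against other B cells they went from 6 to 4. For these counts and the 8 over all cells, the share of all genes called is not given here. They therefore show only the change with the setting. Few UMIs limit PRDM1, XBP1 and DNAJB9 in germinal centre B cells, and TNFRSF17 in T/NK-type cells.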
